A study of Mus musculus with 3 samples.

Results

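CDK inhibitors and D-type cyclins were examined as 10 listed genes: Cdkn1a, Cdkn1b, Cdkn1c, Cdkn2a, Cdkn2b, Cdkn2c, Cdkn2d, Ccnd1, Ccnd2 and Ccnd3. Each gene took the probe set that the platform annotation assigns to that symbol alone, and the one of highest mean signal where there were several. This gave values for 9 of the 10, 6 inhibitors and 3 cyclins, out of 19938 genes in all. Cdkn1a had no probe set of its own and is described separately.

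The samples were 3 preparations of renal corpuscle, the glomerulus with its capsule, sieved from kidneys of wild-type CD-1 male mice aged 7 to 9 weeks. Each was a pool of about 2 kidneys, and all 3 form 1 group with no control or treatment. CD-1 is an outbred stock, and no cell type was sorted, so podocytes, endothelium, mesangium, parietal cells and tubule fragments are mixed. Fewer cells of a type and less RNA per cell therefore cannot be told apart. Nothing in the labels ties the pools to different litters or days, and part of the spread between replicates may thus be technical.

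D-type cyclins bind the kinases Cdk4 and Cdk6 and start the phosphorylation of the retinoblastoma protein, which releases E2F factors and lets a cell leave G1. The inhibitors fall into a Cip/Kip family, encoded by Cdkn1a (p21), Cdkn1b (p27) and Cdkn1c (p57), and an INK4 family, encoded by Cdkn2a to Cdkn2d, which binds only Cdk4 and Cdk6. Cip/Kip proteins act on several cyclin and kinase pairs and can also help cyclin D complexes to assemble. Mature podocytes do not normally divide and are known for their p57 and p27.

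Sequences were available for 7 of the 10 genes, and those upstream of Cdkn2a and Cdkn2b are shown because these neighbouring INK4 genes lay closest to background. Cdkn2a is also known for 2 products, p16Ink4a and p19Arf, that begin at different first exons, and its 1 probe set lists 2 RefSeq transcripts, so the array signal does not separate them. Cdkn1b is shown as a gene well above background. The 250 bases before each RefSeq start (GRCm38.p6, 5′ to 3′) are in lower case, with GC boxes, GGGCGG on either strand, in capitals.
Cdkn2a upstream start, chr4:89294620-89294869, minus strand: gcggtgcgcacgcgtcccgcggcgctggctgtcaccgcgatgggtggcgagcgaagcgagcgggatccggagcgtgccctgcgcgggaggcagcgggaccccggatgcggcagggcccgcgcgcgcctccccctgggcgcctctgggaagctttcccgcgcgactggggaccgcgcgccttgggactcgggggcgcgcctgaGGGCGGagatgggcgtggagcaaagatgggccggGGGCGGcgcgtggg
Cdkn2a downstream start, chr4:89282193-89282442, minus strand: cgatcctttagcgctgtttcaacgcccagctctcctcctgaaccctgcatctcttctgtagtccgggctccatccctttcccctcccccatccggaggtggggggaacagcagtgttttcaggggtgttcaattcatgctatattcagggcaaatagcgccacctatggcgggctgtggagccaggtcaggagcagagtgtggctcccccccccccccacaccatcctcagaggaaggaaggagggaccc
Cdkn2b, chr4:89311033-89311282, minus strand: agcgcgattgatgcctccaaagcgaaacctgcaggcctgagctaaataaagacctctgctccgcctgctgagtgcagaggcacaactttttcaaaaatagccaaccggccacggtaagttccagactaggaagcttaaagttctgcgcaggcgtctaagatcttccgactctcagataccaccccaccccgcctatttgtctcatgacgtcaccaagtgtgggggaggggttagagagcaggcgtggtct
Cdkn1b, chr6:134920151-134920400, plus strand: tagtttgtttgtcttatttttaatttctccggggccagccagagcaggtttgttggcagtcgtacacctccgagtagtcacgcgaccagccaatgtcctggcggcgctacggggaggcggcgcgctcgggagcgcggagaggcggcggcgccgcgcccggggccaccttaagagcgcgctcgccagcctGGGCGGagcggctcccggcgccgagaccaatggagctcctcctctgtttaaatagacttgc

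The upstream start of Cdkn2a held 40 CG pairs and 2 GC boxes, and its downstream start held 7 CG pairs and no GC box. Cdkn2b held 12 CG pairs and no GC box, and Cdkn1b 28 CG pairs and 1 GC box. Over 32851 such windows of all genes the median was 6 CG pairs, and 32.7% had a GC box. Of 11 start sites of the 7 genes, 7 had a GC box, and 1, the upstream start of Cdkn2a, had an E2F match (TTTGGCGC, TTTCGCGC or TTTCCCGC on either strand), found in 1.53% of all windows. The motif TATAAA, found in 12.4%, was in none of the 11. These are matches of letters, not sites shown to be used, and no entry was at hand for Cdkn1c, Ccnd1 or Ccnd2.

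Replicate 2 stood apart in interferon response genes, a list known from earlier results of these data to differ there. Ifit1 had 8.53, 10.40 and 8.39 on replicates 1, 2 and 3, and the median of the 5 such genes with values was 1.11 log2 above the 3-array mean on replicate 2. The median of the 9 cell cycle genes there was -0.0068 from that mean. Leaving out replicate 2 gave 8 detected genes, as many as with it, against 59.5% of all genes.

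Values are log2 signals. Background was the 95th percentile of 1212 olfactory and vomeronasal receptor probe sets, and lay at 6.90, 6.96 and 6.92 on replicates 1, 2 and 3. A gene was called detected where its signal stood above that level in a one-sided limma test over all genes, at an adjusted p under 0.05. By this measure 8 of the 9 genes were detected, where 58.9% of all 19938 genes were. The median of the 9 was 1.37 log2 above background, and that of all genes 0.37. The 8 detected genes stood above background on every array, and Cdkn2b stood below it on every array.

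**Figure D1:**
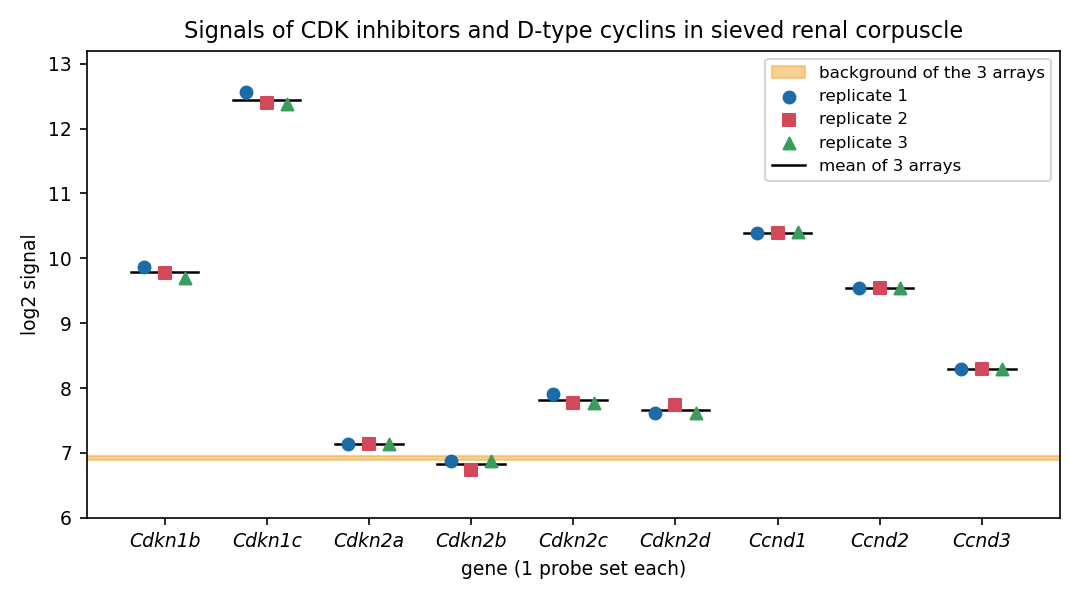
log2 signal (vertical axis) of 9 genes (horizontal axis) on each of 3 arrays (symbols), with the mean of the 3 arrays (black bar) and the span of the array backgrounds (orange band, 6.90 to 6.96). Cdkn2b lies at or under the band and Cdkn2a just over it, and the symbols of each gene lie within 0.18 log2 of each other. Heights of different probe sets do not rank transcripts.

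Among Cip/Kip inhibitors, Cdkn1c gave 12.56, 12.39 and 12.38 on replicates 1, 2 and 3. All 3 arrays were far from background, and replicate 1 was the highest. The mean was 12.44 ± 0.10 (SD, n = 3), a linear signal of 5561 and 45.8-fold over background. Cdkn1c encodes p57, which holds cells out of the cycle as they differentiate and is expressed from 1 parental allele.

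Cdkn1b, the gene of p27, which accumulates in resting cells, gave 9.87, 9.78 and 9.70. Its mean was 9.78 ± 0.09 (n = 3), or 7.27-fold over background. A second probe set of Cdkn1b gave 8.64, 8.67 and 8.67, a mean of 8.66 ± 0.01 and 3.33-fold over background. Both probe sets were above background on every array, yet their means were 1.13 log2 apart. The Cdkn1b level thus depended on the probe set more than on the sample.

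Cdkn1a encodes p21, the inhibitor best known as a target of p53. Its probe set also lists 4930567H12Rik, a long noncoding RNA gene that the reference table places on another chromosome, so its signal belongs to no single gene. That probe set gave 8.57, 8.57 and 8.85, a mean of 8.67 ± 0.16 (n = 3) and 3.35-fold over background. Replicate 3 was 0.28 log2 above the others. With probe sets of several symbols admitted, Cdkn1a was called detected and the count became 9 of 10, against 58.8% of genes.

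The INK4 inhibitors all lay within 1 log2 of background on average. Cdkn2c, encoding p18, gave 7.91, 7.77 and 7.77, a mean of 7.82 ± 0.08 (n = 3), or 1.86-fold over background. Cdkn2d, encoding p19Ink4d, gave 7.62, 7.74 and 7.62, a mean of 7.66 ± 0.07 (n = 3), or 1.67-fold. Both were above background on all 3 arrays, Cdkn2c highest on replicate 1 and Cdkn2d on replicate 2.

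Cdkn2a held 7.14 on every array, 0.22 log2 and 1.16-fold over background. It was detected by the main threshold, but not against the 99th percentile of receptors, where it lay at -0.42, nor with a fixed signal of 150, at -0.086. Cdkn2b, encoding p15, which is known as a target of TGF-beta signalling, gave 6.88, 6.74 and 6.88. Its mean of 6.83 ± 0.08 (n = 3) was -0.092 log2 from background and it was not detected. With the median receptor as background it lay 1.46 above and was called, as were 90.4% of all genes. The 2 neighbours thus sat on either side of the background level.

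All 3 D-type cyclins were detected. Ccnd1, the cyclin most tied to growth factor and Wnt signals, gave 10.39, 10.39 and 10.41. Its mean of 10.40 ± 0.01 (n = 3) was a linear signal of 1347 and 11.1-fold over background. Ccnd2, which is tied to growth factor signals in many tissues, held 9.55 on all 3 arrays, 6.16-fold over background with a linear signal of 747. Ccnd3, the D cyclin often kept in differentiated cells, held 8.30 on all 3, 2.59-fold over background with a linear signal of 315. None of the 3 came within 1 log2 of background on any array.

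Against fixed levels of linear signal, 7 of the 9 genes exceeded 150, where 51.9% of all genes did. Over 500 were Cdkn1b, Cdkn1c, Ccnd1 and Ccnd2, 4 of 9, against 18.0% of all genes. Over 1000 were Cdkn1c and Ccnd1, 2 of 9, against 7.97%. These counts describe the list and do not order its members, because each probe set has its own affinity.

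The median SD of the 9 genes was 0.071 log2, wider than the 0.0094 of all detected genes, of which many held tied signals. Detected genes with 3 different signals had a median SD of 0.094. The 2 members with 3 different signals, Cdkn1b and Cdkn1c, had SDs of 0.085 and 0.10. The widest gap between arrays, that of Cdkn1c, was 0.18 log2 or 1.13-fold, and 15.7% of detected genes had a wider one. Cdkn1b, Cdkn1c and Cdkn2c were highest on replicate 1. Signals were the same on all 3 arrays for Cdkn2a, Ccnd2 and Ccnd3, to every decimal deposited, and the same on 2 arrays for 4 others. Over all genes 54.2% held 1 value on the 3 arrays and 27.5% held 2 values, so an SD of 0 is not an error of 0.

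**Figure D2:**
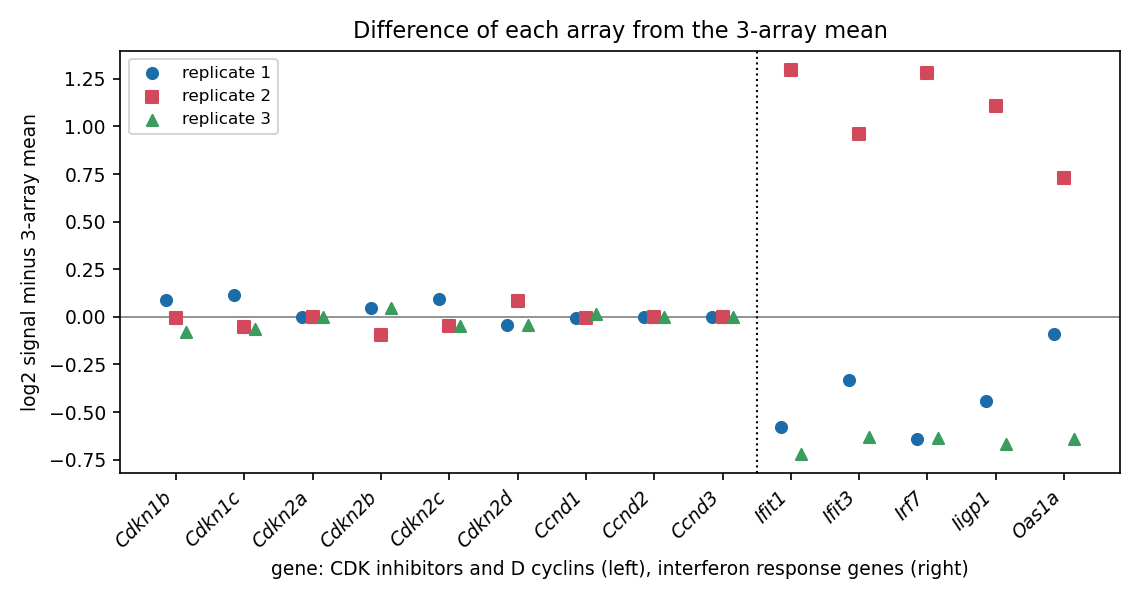
log2 signal minus the 3-array mean (vertical axis) for 9 CDK inhibitor and D cyclin genes (left of the dotted line) and 5 interferon response genes (right), with 1 symbol for each array. Cell cycle genes stay within 0.12 of 0, and every interferon gene is highest on replicate 2.

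Only Cdkn1c met the rule for naming genes of like pattern, with 3 different signals and an SD above the 0.094 that was the median of such detected genes. Of 48 listed genes with 3 different signals, the nearest in deviations over the 3 arrays was Cdh5, a cadherin of endothelial junctions, at a distance of 0.014 log2. It had 11.06, 10.90 and 10.90. Next were Cks1b, a cofactor in the turnover of p27, at 0.045, and Ehd3, an endothelial membrane traffic gene, at 0.054. With 3 arrays such likeness is a description only. None of the 6 podocyte markers with values had 3 different signals, so the rule could not name one. Genes with tied signals were left out in the same way. Median deviations on replicates 1, 2 and 3 were 0.011, -0.015 and -0.020 for endothelial markers and 0.0014, 0 and -0.0028 for podocyte markers, all smaller than those of Cdkn1c. The endothelial markers did not move as 1 set. Tek, at 11.00, 10.49 and 10.72, was highest on replicate 1, as were Cdh5 and Ehd3. The others had tied signals, among them Flt1, which held 11.04 on every array, and Kdr, with 1 signal on replicates 1 and 2.

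Markers of the labelled tissue were present. The 6 podocyte markers reported here, the 7 endothelial and the 5 mesangial markers were all detected, among them Podxl at 12.33, Kdr at 11.72 ± 0.02 (SD, n = 3) and Itga8 at 11.73. Of 7 proximal tubule markers 6 were detected, with Kap at 10.61 ± 0.16 and Cubn at 6.54, not detected. Of 6 markers of later tubule segments 4 were detected, Calb1 among them, of 7 leukocyte markers 5, Tyrobp among them, and of 4 parietal epithelial markers 3. With the 99th percentile as background 3 proximal tubule and 0 parietal markers were detected. Of all genes 58.9% were detected by the main threshold and 41.7% with the 99th percentile. Summed linear signals on replicates 1, 2 and 3 were 15853, 15813 and 15775 for podocyte, 21007, 19843 and 20192 for endothelial, 2700, 3149 and 2925 for proximal tubule and 1928, 2225 and 1571 for leukocyte markers. Those of later tubule markers were 1985, 1948 and 2266, and Umod, a detected marker of that list, had log2 signals of 8.77, 9.18 and 9.78. The part of each cell type in the signals of the cell cycle genes was not tested.

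The kinases that D cyclins drive were detected with them. Of 10 G1 kinases, E cyclins and their helpers 8 were detected, or 80% against 58.9% of all genes. Their median was 1.40 log2 above background. Cdk4 was at 9.99 ± 0.005 (n = 3) or 8.38-fold over background, Cdk6 at 7.98 ± 0.03 or 2.08-fold, and Cdk2, the partner of E cyclins, at 7.98 ± 0.14 or 2.07-fold. Genes of the kinase that activates these, Cdk7, Ccnh and Mnat1, were at 8.67 ± 0.22, 8.77 ± 0.14 and 9.18 ± 0.03. Cdc37, a chaperone partner of kinases, was at 8.79 ± 0.01 and the phosphatase gene Cdc25a held 7.35. Ccne1 and Ccne2, the E cyclins that follow D cyclins late in G1, were not detected, at 6.48 and 5.68 on every array.

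Of 13 pocket protein and E2F genes 11 were detected, or 84.6% against 58.9% of all genes. Rb1, the retinoblastoma gene, held 9.59 on every array, 6.35-fold over background, and its relatives Rbl2 and Rbl1 held 8.55 and 7.74. E2f6, a repressor, was at 8.83 ± 0.01 (n = 3) and E2f3, an activator, at 8.23 ± 0.04. E2f4, which acts with pocket proteins in resting cells, was at 8.12 ± 0.01. E2f5 was at 8.01 ± 0.04, E2f7 at 7.43 ± 0.01, and the E2F partners Tfdp1 and Tfdp2 at 8.85 and 9.11 ± 0.01. E2f1 was at 7.46 ± 0.05, 1.45-fold over background, and E2f2 and E2f8 were not detected, at 6.95 and 6.15 ± 0.03. E2f2 lay 0.030 log2 above background on average. Without replicate 2 the number detected in this list was 12, against 59.5% of all genes.

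**Figure D3:**
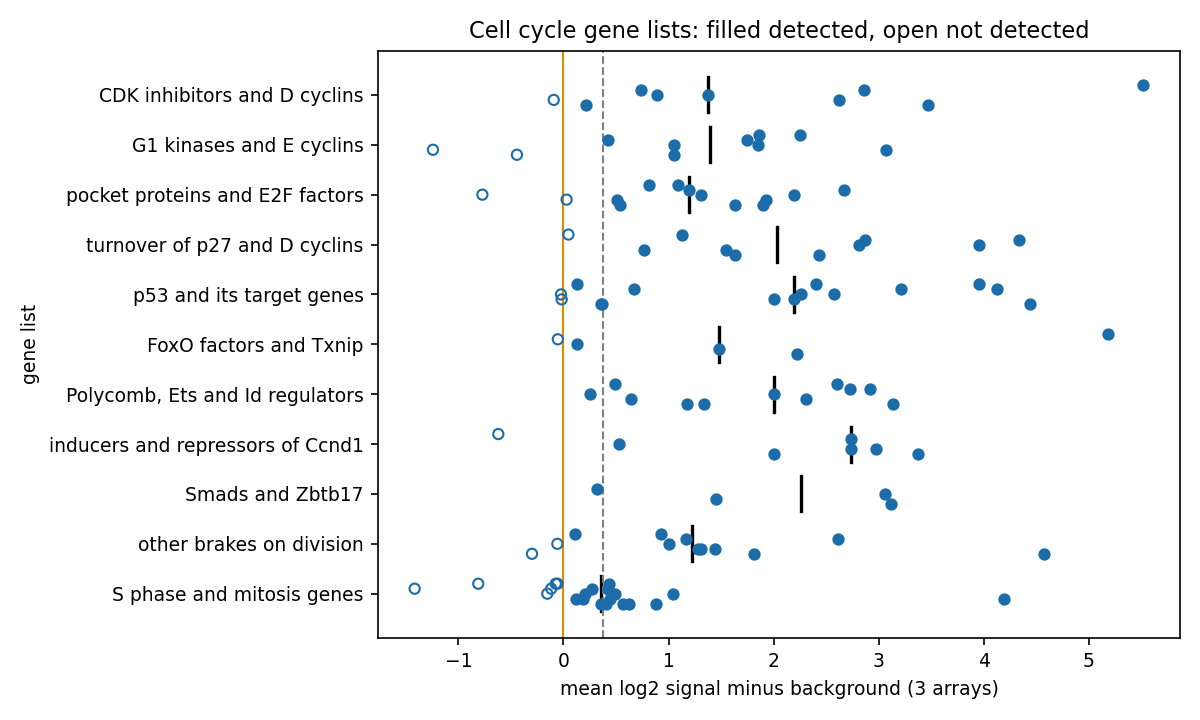
Mean log2 signal minus background over 3 arrays (horizontal axis) for each gene of 11 lists (rows), with detected genes filled, undetected genes open, the list median as a black bar, the orange line at background and the dashed grey line at the median of all genes, 0.37. The median of S phase and mitosis genes lies at 0.36, and 8 of the 9 CDK inhibitor and D cyclin genes are filled.

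Genes that remove or restrain these proteins were next examined, beside the 58.9% of all genes that were detected. Of 10 turnover genes with values 9 were detected, among them Rbx1 at 11.26 ± 0.09 (n = 3), Cryab at 10.88 ± 0.11 and Cul1 at 9.79 ± 0.21. Skp2, which marks p27 for destruction, was not detected, at 6.97 on every array, 1.03-fold over background. Its signal was slightly above background on all 3 arrays. Without replicate 2 all 10 turnover genes were called, Skp2 included, against 59.5% of all genes. Of 12 other brakes on division 10 were detected, among them the antiproliferative gene Tob1 at 11.49 ± 0.03, Dyrk1a at 9.53 ± 0.04 and Btg1 at 8.74 ± 0.10. Gadd45g and Cdkn3 were not, at 6.62 ± 0.01 and 6.87 ± 0.13.

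Upstream regulators of the inhibitors were also listed, again beside 58.9% of all genes detected. Of 15 p53 target and feedback genes with values 13 were detected, with Gadd45a at 11.37 ± 0.15 (n = 3), Ccng1 at 11.05 ± 0.12 and Mdm2, the negative regulator of p53, at 9.12 ± 0.001. The other 10 detected genes of this list ranged from 7.05 for Zmat3 to 10.88 for Ei24. Bbc3 and Sesn2 were not detected, at 6.91 and 6.90, and Trp53 itself and Bax had no probe set of their own. Of 5 genes listed as FoxO factors, which induce Cdkn1b, and Txnip 4 were detected. Foxo1 held 9.15 and Foxo3 8.41, whereas Foxo6 was not detected, at 6.87. Txnip, known for restraining growth, was at 12.11 ± 0.02. Of 4 genes listed as Smads, which relay TGF-beta signals to Cdkn2b, and Zbtb17 all were detected. Smad2 was at 10.04 ± 0.16, Smad4 at 9.98 ± 0.03 and Smad3 at 8.38 ± 0.11. Of 11 Polycomb, Ets and Id genes, known regulators of Cdkn2a, 11 were detected, with Bmi1 at 10.06, Ets1 at 9.84 ± 0.01 and Id3 at 9.65 ± 0.10.

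Of 7 inducers and repressors of Ccnd1 6 were detected, or 85.7% against 58.9% of all genes. Ctnnb1, the beta-catenin gene, was at 10.30 ± 0.02 (n = 3), and Dach1, which is known to repress Ccnd1, held 9.90 on every array, 7.86-fold over background. Tcf7l2 was at 9.66 ± 0.01, and Myc was not detected, at 6.30.

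Genes of S phase and mitosis stood about as far above background as genes in general. Of 21 with values 15 were detected, or 71.4% against 58.9% of all genes, and their median was 0.36 log2 above background, where that of all genes was 0.37 and that of the 9 CDK inhibitor and D cyclin genes 1.37. With the 99th percentile of receptors 3 of 21 were detected, against 41.7% of all genes, and 7 of the 9. Pcna, which also serves DNA repair, was at 11.12 ± 0.07 (n = 3), Mcm6 at 7.97 ± 0.11 and Mcm4 at 7.80 ± 0.03. The proliferation marker Mki67 was not detected, at 6.11 ± 0.24, nor was Bub1 at 5.51 ± 0.25 or Plk1 at 6.77. These were the 3 of lowest mean among 6 undetected genes. Some other mitosis genes of the list were detected, all within 1 log2 of background, and others were not. Mki67 had 6.37, 5.91 and 6.06 on the 3 arrays, all below background.

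Cdkn1c lies between Kcnq1 and Slc22a18 in an imprinted region of chromosome 7. Of 11 genes of that region with values 7 were detected, or 63.6% against 58.9% of all genes. Their median was 0.31 log2 above background, where that of all genes was 0.37. The direct neighbours Kcnq1 and Slc22a18 held 7.23 and 7.70 on every array, 1.24-fold and 1.71-fold over background. Phlda2, another imprinted growth gene, was not detected, at 6.23 ± 0.03 (n = 3), nor were Trpm5 and Tspan32. Cd81, a tetraspanin gene of many cell types, held 12.56 and Nap1l4 was at 10.08 ± 0.01.

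**Figure D4:**
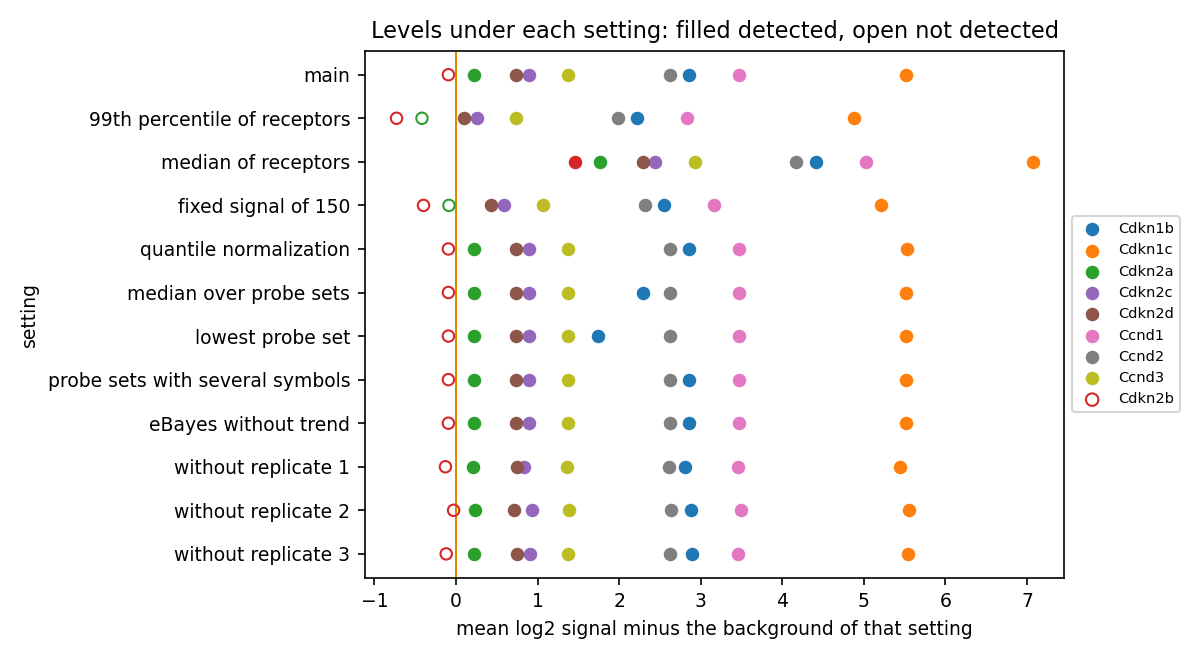
Mean log2 signal minus background (horizontal axis) of the 9 genes (colours) under the main setting and 11 alternatives (rows), where filled points are detected and open points are not. Cdkn2a and Cdkn2b change sides of the background, whereas the other 7 genes stay filled in every row.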

How the data were processed

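Total RNA of 3 renal corpuscle pools was measured on an Affymetrix mouse gene array. Per the labels, minced kidneys were digested with collagenase A (0.5%) for 15 min at 37 °C and passed through filters of 100, 70 and 40 µm, and RNA was amplified in 1 round with a NuGEN kit. The authors deposited log2 signals of 35557 probe sets, and Affymetrix Expression Console is the tool credited in the submitters' processing notes. Its version and settings are not given in the sources used here. Array medians were 7.11, 7.11 and 7.09, and Pearson's r across genes was 0.998 for each pair of arrays. Genes are not independent replicates. No normalization was added. The number of arrays limits the precision, and no depth exists.

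The platform annotation names 1 symbol for 21789 probe sets, several for 1621 and none for 12147. Detection was tested with limma 3.58.1 in R 4.3.3 (lmFit with an intercept, eBayes with a trend, Benjamini-Hochberg over 19938 genes) and was first tried on simulated data. In the main setting its standard error followed the level and not the spread of a gene (0.029 for Cdkn2a, with an SD of 0). The call is thus in effect a threshold near background. With the fixed signal of 150 the error differed with the spread. It was 1.47e-17 for Cdkn2a and 0.057 for Cdkn1c, whose SD was 0.10. Ties may make p-values too small, and none are printed. Of the receptor genes themselves 54 of 1196 were called. Linear signals are antilogs of mean log2 signals.

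The genes and lists were chosen with earlier results of these data known. Named were all members, any G1 kinase, pocket protein, E2F or p53 gene (of the last, a choice made with values seen), and of each other list up to 3 detected genes of highest and 3 undetected of lowest mean. The direct neighbours of Cdkn1c, outside that rule, were named for their position, and genes like Cdkn1c by the distance given. Tek, also outside it, was named for its pattern over the arrays. Zbtb17 was named only as part of a list title. Alternatives were other backgrounds, quantile normalization, other probe set rules, no trend and leaving out each replicate. With 1 group no comparison of conditions exists.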

Additional observations from a re-analysis of the deposited data

Results flagged for a closer look

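The probe set shared by Cdkn1a and 4930567H12Rik was outside the rule that assigns probe sets to 1 gene, and it carried signal. It stood 1.74 log2 above background, with 8.57, 8.57 and 8.85 on replicates 1, 2 and 3, and was called detected once such probe sets were admitted. How much of it came from either gene was not tested. Groups of 3 samples were too small for a test of single outlying samples.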

How the results depend on the processing

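No paired analysis was possible because every array belongs to the same group. The number detected among the listed genes was 7 with the 99th percentile of receptors, against 41.7% of all genes. With a fixed signal of 150 it was also 7, against 50.2%. It was 9 with the median receptor, against 90.4%, and 9 with shared probe sets admitted, against 58.8%. All other settings gave 8, including those without each replicate, against 57.3% to 59.5%. The number of all genes detected was 18031 with the median receptor and within 1.5 times of 11752 otherwise. Cdkn2a lay at -0.42 with the 99th percentile and -0.086 with the fixed signal, and Cdkn2b at 1.46 with the median receptor, because those settings move the background itself. The other 96 member levels kept their direction and call. Cdkn1b, the gene with 2 probe sets, lay 1.74 above background by its lower one. Outside 1.5 times were 6 list counts. With the 99th percentile detected S phase and mitosis genes numbered 3, neighbours of Cdkn1c 4, proximal tubule markers 3 and parietal markers 0. With the median receptor the neighbours of Cdkn1c numbered 11, and with the fixed signal interferon genes numbered 1, the cause of which was not tested. Quantile normalization separated tied signals, giving SDs of 0.014 for Cdkn2a, 0.018 for Ccnd2 and 0.017 for Ccnd3, and 0.028 for Ccnd1. Signals near background, such as those of Cdkn2a, Cdkn2b, Skp2 and E2f2, are limited by where that level is set.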
